A study of Mus musculus with 9 samples.

Results

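Angptl4, Pdk4 and 8 genes of the lipid droplet were examined in RNA-seq data from the colon mucosa of 9 mice aged 15 wk. The 10 genes were taken by their symbols from a table of 54146 genes. They were chosen from a measured value, because an earlier look at the same genotype comparison had shown lower Angptl4 in mice with the p16 epimutation. The other 9 genes were added by name as its relatives in fat handling, with results of that comparison known. The genotype values of the 10 genes are therefore given as a description, with no test. RNA-seq was carried out on 5 ApcMin/+ mice (replicates 1 and 5 female, 2, 3 and 4 male) and on 4 ApcMin/+; p16cis/cis mice (replicate 1 male, 2, 3 and 4 female), each mouse being 1 replicate. Mice of both groups were on the C57BL/6J background and carried the Min mutation, which inactivates 1 copy of Apc in every cell of the body, so that polyps arise in the intestine. The second group also carried on both alleles a knocked-in sequence that attracts DNA methylation to the p16 promoter. Both changes are in the germline and so in all tissues, and the RNA, labelled as mucosa and by the methods taken from colonic crypts, was not separated by cell type, so a value does not show in which cells a difference arose.

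Cells keep surplus fatty acids as triacylglycerol in lipid droplets, which are coated by the perilipins Plin2 to Plin5 and emptied by lipases. Adipose triglyceride lipase, encoded by Pnpla2, takes the first fatty acid from a triacylglycerol, and hormone-sensitive lipase, encoded by Lipe, acts mainly on the diacylglycerol that is left. The small proteins G0s2 and Hilpda inhibit the first of these lipases. Angptl4 is a secreted inhibitor of lipoprotein lipase, the enzyme that frees fatty acids from circulating lipoproteins, and Pdk4 is a kinase that switches off the pyruvate dehydrogenase complex and so spares glucose while fatty acids are burned. Angptl4, Pdk4 and Plin2 are textbook targets of the fatty acid receptors of the PPAR family. Fasting, glucocorticoids and low oxygen are also known to raise several of the 10 genes.

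In the GENCODE annotation of GRCm38 all 10 are protein-coding genes. Angptl4 (ENSMUSG00000002289.15) lies on chromosome 17 from 33773750 to 33781830 on the minus strand, and Pdk4 (ENSMUSG00000019577.6) on chromosome 6 from 5483351 to 5496309, also on the minus strand. Of the perilipin genes, 3 lie on chromosome 17 on the minus strand. Plin4 (56100591 to 56109803) and Plin5 (56111601 to 56117596) are separated by 1797 bases, and Plin3 (56277476 to 56292873) starts 159879 bases further on. Plin2 lies on chromosome 4 from 86648386 to 86670060. Pnpla2 (141455198 to 141460743, plus strand) and Lipe (25379527 to 25398710, minus strand) are both on chromosome 7, Hilpda is on chromosome 6 from 29272488 to 29275446 and G0s2 on chromosome 1 from 193272161 to 193273217. Exons of Plin4 overlap those of Hdgfl2 on the other strand, and exons of Lipe overlap the antisense gene 4732471J01Rik. Whether reads were counted by strand was not given in the sources used here, so the counts of Plin4 and Lipe may hold reads of these neighbors.

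Upstream sequences are shown for 3 of the genes because PPAR dimers bind copies of the letters AGGTCA, and the 3 differ in whether they hold these letters and in how their levels compared between the genotypes. RefSeq promoter windows (GRCm38.p6) were matched for 9 of the 10 genes in 12 entries. Angptl4 had no entry, so its promoter was not searched for any of the motifs below. The stretches printed are read in the direction of transcription and end at the base before the first annotated exon, at chr6:5496310-5496528 for Pdk4, chr4:86670061-86670309 for Plin2 and chr17:56117597-56117798 for Plin5, all on the minus strand. Capitals mark AGGTCA and CCAAT on either strand, so that TGACCT and ATTGG are the same motifs read backward.
Pdk4: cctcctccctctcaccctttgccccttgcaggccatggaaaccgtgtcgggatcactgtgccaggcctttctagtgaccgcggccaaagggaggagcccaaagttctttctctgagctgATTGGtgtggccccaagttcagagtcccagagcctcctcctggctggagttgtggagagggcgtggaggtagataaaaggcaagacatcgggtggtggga
Plin2: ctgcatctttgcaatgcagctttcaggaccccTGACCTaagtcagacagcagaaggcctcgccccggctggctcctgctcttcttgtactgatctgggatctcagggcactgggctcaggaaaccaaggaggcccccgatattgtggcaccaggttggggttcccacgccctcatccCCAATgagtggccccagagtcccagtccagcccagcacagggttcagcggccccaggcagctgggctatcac
Plin5: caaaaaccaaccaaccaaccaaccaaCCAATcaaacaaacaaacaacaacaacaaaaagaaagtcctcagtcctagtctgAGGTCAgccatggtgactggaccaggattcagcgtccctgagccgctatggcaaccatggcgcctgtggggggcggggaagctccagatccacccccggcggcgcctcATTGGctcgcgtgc
The letters AGGTCA, searched on both strands in the 250 bases before the start, were in the windows of Plin2 and Plin5 and in 14.0% of all 32851 windows. A pair of AGGTCA copies 1 base apart, the arrangement PPAR dimers prefer, was in 0 of the 12 windows and in 0.033% of all windows. CCAAT was in the windows of 5 of the genes (Pdk4, Plin2, Plin3, Plin4 and Plin5) and in 33.9% of all windows. ACGTG, the core letters bound by hypoxia-inducible factors, was in the windows of Hilpda and Lipe and in 16.6% of all windows, and GTAAACA, bound by FoxO factors, in that of Lipe and in 3.17%. These are matches of letters in short windows only.

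The libraries differed between the genotypes in ways that bear on every value below. Reads on genes numbered 13523500 to 17885918 per mouse and were lower in each ApcMin/+; p16cis/cis mouse than in each ApcMin/+ mouse. The share of reads from mitochondrially encoded genes averaged 12.0% ± 2.87 (SD) in the 5 ApcMin/+ mice, and the 4 ApcMin/+; p16cis/cis mice averaged 24.2% ± 4.41 (SD). The ranges were apart (p = 0.00794 by an exact two-sided permutation test, which cannot give less with 9 mice). Within the ApcMin/+ group this share was 8.74% to 11.4% in the males and 14.3% to 15.6% in the females. The colonocyte gene Car1 (40059 to 165058 normalized counts) and the goblet cell gene Muc2 (103949 to 187680) were abundant in all 9 mice, both genes that the labelled tissue should express. Normalized counts, the unit used throughout, are read counts divided by a size factor for each mouse.

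Angptl4 was lower in ApcMin/+; p16cis/cis mucosa. In ApcMin/+ replicates 1 to 5 its normalized counts were 89.3, 229, 598, 627 and 39.7. In ApcMin/+; p16cis/cis replicates 1 to 4 they were 20.2, 15.95, 28.6 and 14.1. Every ApcMin/+; p16cis/cis mouse lay below every ApcMin/+ mouse, although the lowest ApcMin/+ mouse, female replicate 5, came close to the highest of the other group. The means were 317 ± 279 (SD, n = 5) and 19.7 ± 6.43 (SD, n = 4), a 16.1-fold ratio, and the difference on the log2(normalized count + 1) scale was -3.32 (SE 0.70). The lower group rests on 9 to 19 reads per library, so its values carry a wide counting error. In such bulk RNA, fewer cells that express a gene and less RNA per cell cannot be told apart.

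Pdk4 showed the same order of groups. In ApcMin/+ replicates 1 to 5 its normalized counts were 183, 457, 1215, 1488 and 270.1, and in ApcMin/+; p16cis/cis replicates 1 to 4 they were 96.0, 75.0, 67.6 and 130.0. The groups did not overlap, and the highest values were again those of ApcMin/+ males 3 and 4. The means were 723 ± 591 (SD, n = 5) and 92.1 ± 28.0 (SD, n = 4), a 7.84-fold ratio, with a log2 difference of -2.55 (SE 0.54). Ordered from the most negative log2 difference, Angptl4 was number 14 and Pdk4 number 39 of the 14410 genes that reached a normalized count of 10 in at least 4 mice.

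**Figure D1:**
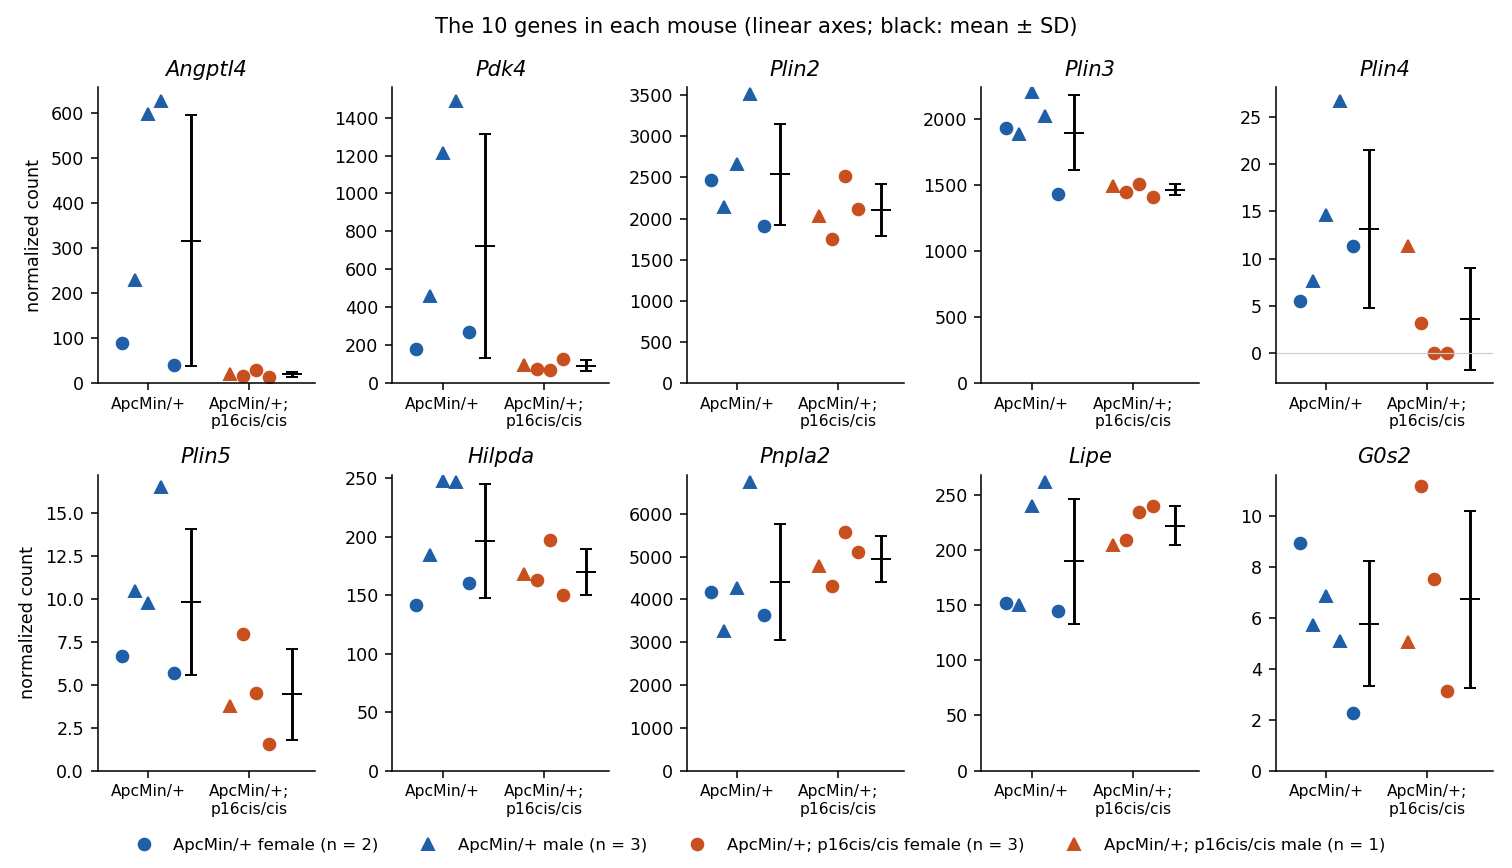
Normalized count (linear axis from 0, with room below 0 in the Plin4 panel for the error bar) of each of the 10 genes in each of 9 mice, with blue for ApcMin/+, orange for ApcMin/+; p16cis/cis, circles for females, triangles for males and black bars for the mean ± SD of each group. Angptl4 and Pdk4 are the genes whose groups do not overlap, and ApcMin/+ males 3 and 4 hold their highest values.

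Sex and genotype were unevenly combined, and the levels of both genes ran with sex among the ApcMin/+ mice. The 3 ApcMin/+ males averaged 485 normalized counts of Angptl4 and the 2 females 64.5, a 7.51-fold ratio, and for Pdk4 the averages were 1053 and 227, a 4.65-fold ratio. Among females alone the ApcMin/+ mean was above the ApcMin/+; p16cis/cis mean by 3.30-fold for Angptl4 (64.5 and 19.5, n = 2 and 3) and 2.49-fold for Pdk4 (227 and 90.9). The single ApcMin/+; p16cis/cis male had 20.2 for Angptl4 and 96.0 for Pdk4, and the mean of the ApcMin/+ males was 24.0-fold and 11.0-fold higher. With sex as a term in the fit the log2 genotype differences were -2.69 (SE 0.56) for Angptl4 and -2.09 (SE 0.45) for Pdk4.

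Sex itself was not used to choose the genes, but its contrast is not independent of that choice. Males were 3 of the 5 ApcMin/+ mice and 1 of the 4 ApcMin/+; p16cis/cis mice. High values in ApcMin/+ males thus enter both contrasts, and nothing is read from the counts of genes in this paragraph. With genotype in the model, the log2 difference of males minus females was 1.81 (SE 0.56) for Angptl4, 1.33 (SE 0.45) for Pdk4 and 1.61 (SE 0.73) for Plin4. None passed after adjustment over all 14410 genes (limma, Benjamini-Hochberg, adjusted p = 0.954, 0.992 and 0.992, unadjusted p = 0.00743, 0.0122 and 0.0479). Of the 8 genes tested, 0 passed by limma, while 7 of all genes (0.0486%) passed. An unadjusted p under 0.05 was reached by 3 of the 8 and by 4.38% of all genes, and Plin4, with 0 to 21 reads, no longer reached it with 0.1 added before taking logarithms. Over 17 other fits the adjusted p of Angptl4 ran from 0.175 to 1.00, the lowest without the ApcMin/+; p16cis/cis male. Within the ApcMin/+ mice every male was above every female for 3 of the 8 genes tested, Angptl4, Pdk4 and Hilpda, as for 13.5% of all genes, and for Plin5, with 5 to 13 reads in these mice. With 3 males and 2 females the smallest exact p is 0.10, so no difference can pass there (exact permutation test, two-sided, p = 0.10 for Angptl4 and 0.20 for Pdk4). A difference of the genotype effect between the sexes was not called for either gene (interaction -2.76, SE 0.84, and -1.93, SE 0.75, limma adjusted p = 0.722 for both). That test rests on the single ApcMin/+; p16cis/cis male, assumed to vary like the other mice, and 0 of 14410 genes passed that test by limma, with 979 at an unadjusted p under 0.05.

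**Figure D2:**
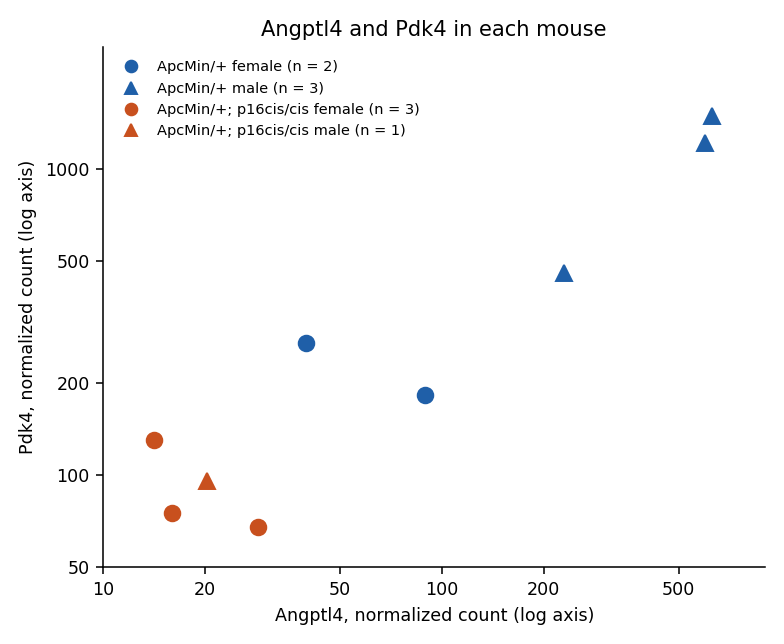
Normalized counts of Angptl4 (horizontal, log axis) and Pdk4 (vertical, log axis) in each of 9 mice, colored by genotype with circles for females and triangles for males. The 4 ApcMin/+; p16cis/cis mice lie at the lower left with 14.1 to 28.6 and 67.6 to 130.0, the ApcMin/+ females next and the ApcMin/+ males at the upper right.

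Of the coat proteins of the droplet, Plin2 and Plin3 differed far less. Plin2, the perilipin found on droplets of most cells, had normalized counts of 2467, 2146, 2667, 3506 and 1911 in ApcMin/+ replicates 1 to 5 and of 2033, 1750, 2512 and 2115 in ApcMin/+; p16cis/cis replicates 1 to 4. These ranges overlapped widely, with a mean of 2540 ± 613 (SD, n = 5) against 2103 ± 315 (SD, n = 4) and a log2 difference of -0.25 (SE 0.17). Of the upstream sequences shown above, those of Plin2 and Plin5 hold AGGTCA and that of Pdk4 does not. These letters were in 14.0% of all windows, and a link between them and the levels was not tested.

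Plin3, which moves between the cytosol and young droplets, had 1932, 1891, 2203, 2026 and 1436 in the ApcMin/+ mice and 1491, 1448, 1509 and 1415 in the ApcMin/+; p16cis/cis mice. Here 4 of the 5 ApcMin/+ mice lay above the whole other group, and female replicate 5 lay within it. The means were 1898 ± 285 (SD, n = 5) and 1466 ± 42.5 (SD, n = 4), and the log2 difference was -0.36 (SE 0.12).

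Plin4 and Plin5, perilipins best known from adipocytes and from oxidative tissues such as heart and liver, were near the limit of detection. Plin4 had 5.58, 7.61, 14.6, 26.7 and 11.4 in the ApcMin/+ mice, from 5 to 21 reads. In the ApcMin/+; p16cis/cis mice it had 11.4, 3.19, 0 and 0, from 9 reads in the male to none in females 3 and 4. The group means were 13.2 ± 8.32 (SD, n = 5) and 3.64 ± 5.37 (SD, n = 4). Its log2 difference of -2.22 (SE 0.78) depends on the value of 1 added before taking logarithms and was -3.87 with 0.1 added. Plin5 had 6.70, 10.5, 9.76, 16.5 and 5.68 in the ApcMin/+ mice and 3.79, 7.98, 4.51 and 1.57 in the others, from 1 to 13 reads, and the groups overlapped. Its means were 9.82 ± 4.25 (SD, n = 5) and 4.46 ± 2.66 (SD, n = 4).

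The genotypes overlapped for the lipases and their inhibitors. Pnpla2 had 4180, 3258, 4257, 6738 and 3629 in the ApcMin/+ mice and 4772, 4310, 5581 and 5118 in the ApcMin/+; p16cis/cis mice. The highest and the lowest mouse were both ApcMin/+ males, replicates 4 and 2, and the log2 difference was 0.21 (SE 0.18), with means of 4412 ± 1363 (SD, n = 5) and 4945 ± 538 (SD, n = 4). The overlap rests on replicate 4. The other ApcMin/+ mice all lay below the ApcMin/+; p16cis/cis mice, and without replicate 4 the log2 difference was 0.37 (SE 0.12). Lipe had 152, 150.2, 240.0, 262 and 144 in the ApcMin/+ mice and 205, 209, 234 and 239.7 in the others. ApcMin/+ males 3 and 4 were above the other genotype and the remaining ApcMin/+ mice below it, which left a log2 difference of 0.27 (SE 0.20). Among females alone all 3 ApcMin/+; p16cis/cis mice lay above both ApcMin/+ mice, with a log2 difference of 0.62 (SE 0.21).

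Hilpda, the inhibitor known for its induction under low oxygen, had 142, 184, 248, 247 and 160.0 in the ApcMin/+ mice and 168, 163, 197 and 150.4 in the ApcMin/+; p16cis/cis mice. The ranges overlapped, and the log2 difference was -0.18 (SE 0.19). Among females alone the log2 difference was 0.16 (SE 0.24), so the sign was not resolved. G0s2 had 2.27 to 8.93 in the ApcMin/+ mice and 3.13 to 11.2 in the ApcMin/+; p16cis/cis mice, from 2 to 8 reads, and a difference was not detectable at this depth.

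Of the 10 genes, 8 reached the level needed for the fit, and Plin5 and G0s2 did not. Plin4 reached it through 3 ApcMin/+ mice and 1 ApcMin/+; p16cis/cis mouse. A call needed an adjusted p under 0.05 and a fold change over 2. As a description and not as a test of these genes, Angptl4 and Pdk4, 2 of the 8, met it as lower in ApcMin/+; p16cis/cis mice, where 1.64% of all genes tested did, and 0 of the 8 met it as higher (1.83% of all genes). By the adjusted p alone the same 2 were lower (8.75% of all genes) and 0 higher (8.14%). Under other settings another gene joined them. Plin3 joined as lower (edgeR, DESeq2, without ApcMin/+ replicate 5, or the replicate block, whose estimates are those without that mouse). Plin4 joined as lower without ApcMin/+; p16cis/cis replicate 1, and Pnpla2 as higher without ApcMin/+ replicate 4. Angptl4 and Pdk4 were the genes whose ApcMin/+; p16cis/cis mice all lay below the ApcMin/+ mice (8.95% of all genes), and 0 had them all above (7.24%). Because the 10 genes were chosen with results of this comparison known, nothing is read from these counts. In females alone 0 of the 8 genes passed the adjusted p, where 379 of all 14410 genes passed as lower and 519 as higher. The log2 difference there was -1.63 (SE 0.51) for Angptl4 and -1.34 (SE 0.34) for Pdk4. With the mitochondrial share added as a covariate the log2 differences of Angptl4 and Pdk4 were -0.78 (SE 1.31) and -0.83 (SE 1.06). With this covariate 0 of the 8 passed, and 0 of all 14410 genes did. The mitochondrial share did not overlap between the genotypes. The parts of sex and of the mitochondrial share in the genotype values were not tested further.

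Per kilobase of exon the levels of the 10 genes covered a wide range. In ApcMin/+ mice Pnpla2 was highest with 1461 ± 451 normalized counts per kilobase (SD, n = 5), above Plin2 (723 ± 175) in all 5 mice and without overlap. Plin3 followed with 501 ± 75.2, below Plin2 in all 5 mice. Pdk4 (206 ± 168) and Hilpda (178 ± 44.5) did not differ beyond their spread, Pdk4 being the higher in 2 of 5 mice. Angptl4 (89.4 ± 78.8) and Lipe (32.2 ± 9.61) overlapped as well, Angptl4 being higher in 3 of 5. The lowest were G0s2 with 6.62 ± 2.80, Plin5 with 4.71 ± 2.04 and Plin4 with 2.28 ± 1.44 normalized counts per kilobase, and G0s2 and Plin5 did not differ beyond their spread.

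The order was otherwise alike in ApcMin/+; p16cis/cis mice but for the places of Pdk4 and Angptl4. Pdk4 stood at 26.2 ± 7.96 normalized counts per kilobase (SD, n = 4), below Hilpda (154 ± 17.8) without overlap and below Lipe (37.7 ± 3.01) in all 4 mice. Angptl4 stood at 5.56 ± 1.82, within the range of G0s2 (7.71 ± 3.98).

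**Figure D3:**
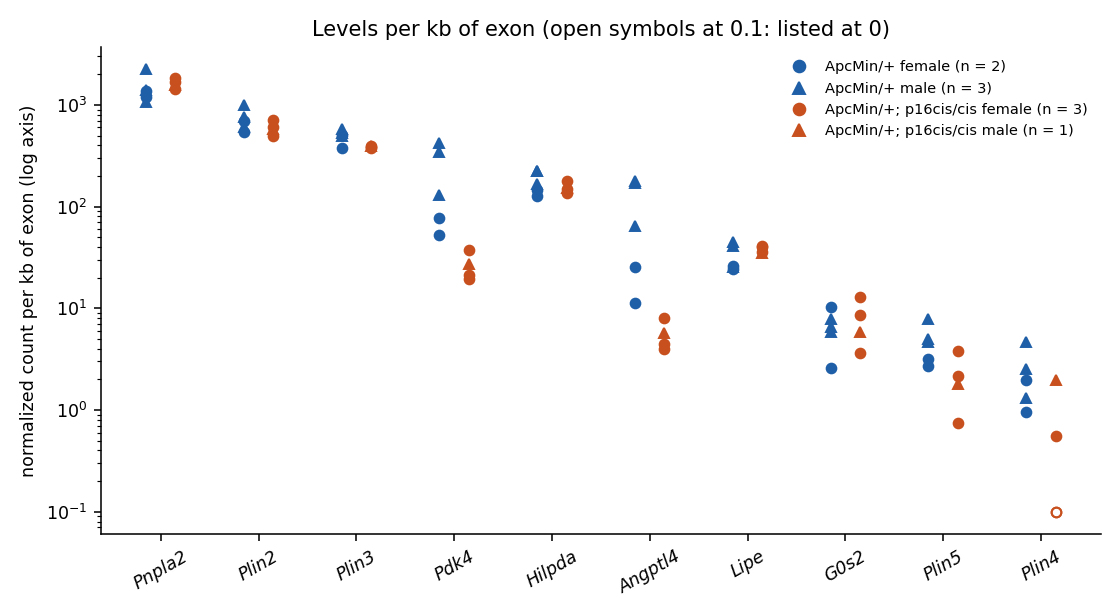
Normalized count per kilobase of annotated exon (log axis) of the 10 genes, ordered by their mean in ApcMin/+ mice, 1 symbol per mouse with blue for ApcMin/+ and orange for ApcMin/+; p16cis/cis, and open symbols at 0.1 for the 2 mice listed at 0 for Plin4. Pnpla2, Plin2 and Plin3 lead in both genotypes, and Pdk4 and Angptl4 are the genes whose orange symbols drop furthest down the axis among the well-covered genes.

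The spread between mice was itself uneven. In ApcMin/+ mice the coefficient of variation was 88.1% for Angptl4 and 81.7% for Pdk4, against 15.0% for Plin3, 24.1% for Plin2 and 25.0% for Hilpda. In ApcMin/+; p16cis/cis mice it was 32.6% and 30.3% for Angptl4 and Pdk4, and 2.90% for Plin3. The highest ApcMin/+ mouse had 15.8 times the Angptl4 of the lowest and 8.13 times the Pdk4.

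Most of the better-covered genes varied together between mice of the same genotype. After each genotype's mean was removed, Pearson's r over the 9 mice ran from 0.41 to 0.93 (median 0.75) over the 21 pairs of the 7 genes other than Plin4, Plin5 and G0s2. Angptl4 was most like Hilpda (r = 0.90), Plin3 (0.87), Lipe (0.84) and Pdk4 (0.82). Pnpla2 and Plin2 had an r of 0.93, and Pdk4 and Lipe of 0.89. G0s2, with few reads, had an r from -0.12 with Pdk4 to 0.63 with Plin3 and Plin5. These values are descriptions, since all genes of a mouse share its library depth, sex and mitochondrial share. The 5 ApcMin/+ mice hold most of the variation, and a median r over pairs of other genes was not taken.

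**Figure D4:**
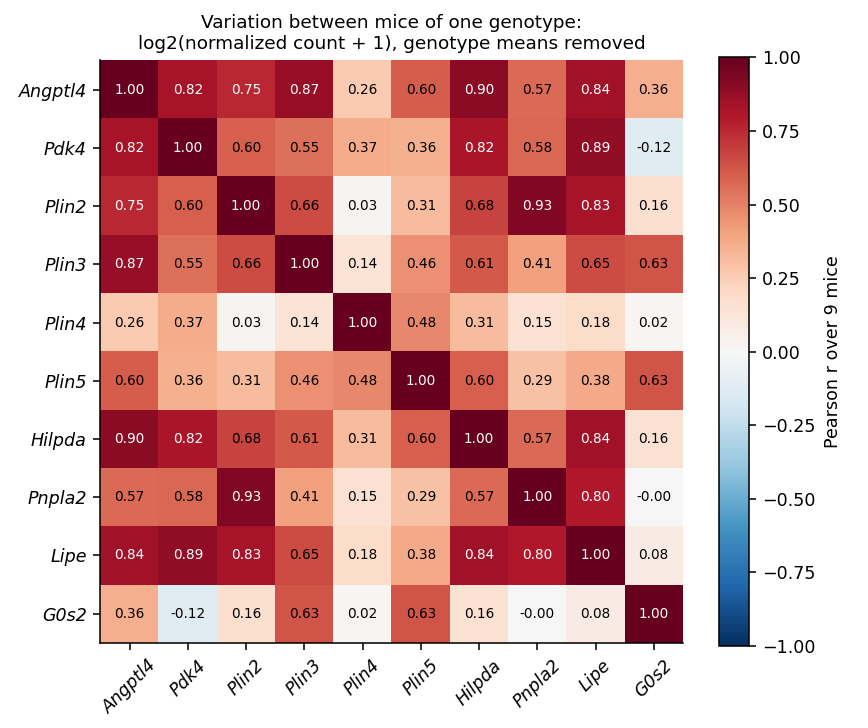
Pearson's r over 9 mice between the 10 genes on the log2(normalized count + 1) scale after the mean of each genotype was removed, with red for positive and blue for negative r. The 7 better-covered genes form a block of positive values from 0.41 to 0.93, and G0s2 ranges from -0.12 with Pdk4 to 0.63 with Plin3.

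Among the 10419 other genes with a mean of at least 100 normalized counts, those most like Angptl4 between mice were Ndufa9, a subunit of respiratory complex I (r = 0.985), Mgst1, a membrane glutathione transferase (0.958), Lpcat3, which remodels phospholipids (0.954), Aifm2 (0.952) and Pcmt1 (0.951), over 9 mice. Among those most like Pdk4 were Scamp5 (0.969), Aktip (0.964), Wrap53 (0.959) and Tmem53 (0.956). Those most like Plin2 were Ppm1a (0.987), Bre (0.984), Chmp1b (0.983), Bri3 (0.981) and Ubl7 (0.980). These likenesses are descriptions with no test.

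The neighbors of the 10 genes in their pathways were then counted in the all-gene fit, leaving the 10 out. Of the 134 genes tested in 6 lists, 47 fell and 5 rose in ApcMin/+; p16cis/cis mice at an adjusted p under 0.05 (limma), against 1261 and 1173 of all 14410 genes, and the median log2 difference was -0.42 against -0.0041. The lists were written with earlier results known, among them lower levels of fat metabolism genes in these mice, so their direction is not independent evidence. The lists also overlap. Pdk1 is in the hypoxia and pyruvate dehydrogenase lists and Ddit4 in the hypoxia and glucocorticoid lists. Each was counted once in the total of 134. In females alone 13 fell and 2 rose, against 379 and 519 of all 14410 genes. With the mitochondrial share as a covariate 0 genes of any kind passed by limma, with 798 of all genes at an unadjusted p under 0.05.

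Of 29 lipid droplet and triacylglycerol genes, 11 fell and 2 rose (median -0.46). Rab18, a small GTPase of the droplet surface, fell from 2206 ± 171 (SD, n = 5) to 1303 ± 51.4 (SD, n = 4), a log2 difference of -0.76 (SE 0.09, limma adjusted p = 0.00155). Lpin2, a phosphatidate phosphatase (-0.84, adjusted p = 0.00384), and Hsd17b13, a droplet-bound dehydrogenase (-1.94, adjusted p = 0.00529), fell too. Aup1, a droplet protein of the ubiquitin pathway (0.66, adjusted p = 0.00635), and Tmem159, a partner of seipin in droplet formation (0.52, adjusted p = 0.0106), rose. Abhd5, the activator of the lipase that Pnpla2 encodes, had 568 ± 150 and 464 ± 50.5 and did not pass (adjusted p = 0.313).

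Of 39 PPAR-responsive genes, 17 fell and 0 rose (median -0.48). They were led by Cyp4b1, Acaa1b and Vnn1, of which Vnn1, a pantetheinase, went from 671 ± 409 (SD, n = 5) to 102 ± 26.2 (SD, n = 4), a log2 difference of -2.51 (SE 0.41, limma adjusted p = 0.00404). Of the 27 hypoxia-responsive genes, 9 fell and 0 rose (median -0.47), among them the mitochondrial protein gene Higd1a (-1.03, adjusted p = 0.00195) and the prolyl hydroxylase Egln1 (-0.48, adjusted p = 0.0113). Of 20 glucocorticoid- and FoxO-responsive genes, 5 fell and 1 rose (median -0.37). Irs2 (-1.07, adjusted p = 0.0088), Fkbp5, a co-chaperone of the glucocorticoid receptor (-1.24, adjusted p = 0.012), and Ddit4, an inhibitor of mTORC1 (-0.86, adjusted p = 0.0158), fell, and the transcription factor Cebpd rose (1.22, adjusted p = 0.00707).

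Of 13 genes of the pyruvate dehydrogenase complex and its regulators, 6 fell and 0 rose (median -0.41). They included the catalytic subunits Dld (-0.63, limma adjusted p = 0.00299) and Pdha1 (-0.53, adjusted p = 0.00629), which belong to the complex that Pdk4 inhibits, and Pdk1, another of its kinases (-0.74, adjusted p = 0.0115). The other kinases, Pdk2 (0.13, adjusted p = 0.647) and Pdk3 (-0.31, adjusted p = 0.11), did not pass. Of 8 genes around Angptl4 and lipoprotein lipase, 1 fell and 2 rose (median 0.21). Lpl, the lipase that Angptl4 inhibits, had 581 ± 152 (SD, n = 5) and 369 ± 69.0 (SD, n = 4), a log2 difference of -0.63 (SE 0.19, adjusted p = 0.0443). Lmf2, of the lipase maturation family (0.55, adjusted p = 0.0067), and Angptl1 (1.61, adjusted p = 0.0166) rose.

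**Figure D5:**
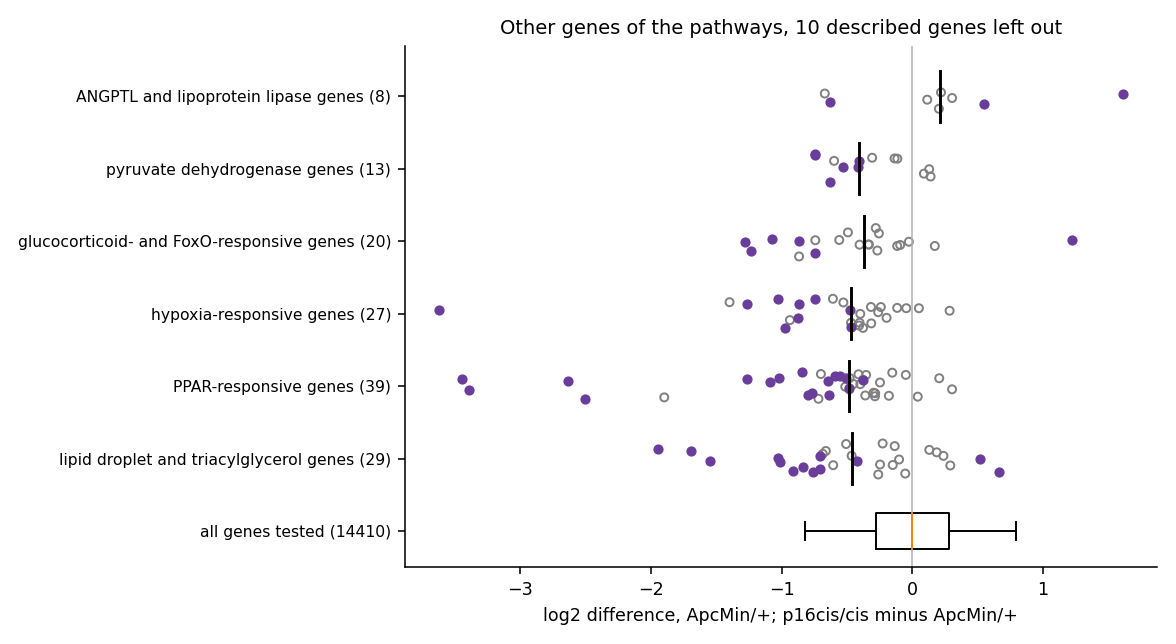
Log2 difference, ApcMin/+; p16cis/cis minus ApcMin/+, of each tested gene in the 6 pathway lists (number tested in parentheses), filled where the adjusted p was under 0.05, with the list median as a black line and, at the bottom, a box plot of all 14410 genes (box 25th to 75th percentile, whiskers 5th to 95th percentile). The medians of 5 lists lie between -0.48 and -0.37, and that of the ANGPTL and lipoprotein lipase list lies at 0.21.

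Because Plin4, Lipe and other genes of the droplet are strongest in fat tissue, markers of cell types that mucosa could hold were read beside them. The summed adipocyte markers were 131 to 426 normalized counts in ApcMin/+ mice and 44.2 to 93.2 in ApcMin/+; p16cis/cis mice (10 markers, exact permutation test, two-sided, p = 0.00794). Nearly all of the sum was Cidec, a droplet fusion protein, with 125, 135, 259, 422 and 123 in the ApcMin/+ mice and 41.7, 43.1, 90.2 and 65.8 in the others (log2 difference -1.69, SE 0.38, limma adjusted p = 0.0132). Lep was at 0 in all 9 mice, Retn, Plin1, Thrsp and Ucp1 had at most 3 reads in any mouse, and Adipoq at most 7.98 normalized counts. The adipocyte markers other than Cidec were thus low in both genotypes.

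Markers of surface colonocytes, the most mature cells of the colon epithelium, summed to 127611 to 269898 in ApcMin/+ mice and 89268 to 116530 in ApcMin/+; p16cis/cis mice (7 markers, none at 0, exact permutation test, two-sided, p = 0.0159). Their highest sum was in ApcMin/+ male 4, which also had the highest Angptl4, Pdk4, Plin2, Pnpla2 and Lipe. Car1 made up 165058 of the 269898 in that mouse. Car1, Car4, Krt20 and Guca2a were highest there, and Slc26a3, Aqp8 and Ceacam20 were highest in ApcMin/+ male 3. Plin3 and Hilpda were also highest in male 3. The lowest ApcMin/+ sum was in male 2, whose Angptl4 (229) lay above that of both ApcMin/+ females (89.3 and 39.7). Markers of the crypt base and of dividing cells summed to 5279 to 8868 and 8852 to 11722 (6 markers, none at 0, p = 0.0238, exact permutation test). Of these lists 1 of 7 genes fell (Slc26a3) and 1 of 6 rose (Mki67) in the all-gene fit, and of 4 fibroblast genes tested 1 fell (Col3a1). Adjusted over the 10 marker sums compared (Benjamini-Hochberg), the 3 smallest exact permutation p-values were each 0.0794. The sums of skeletal muscle, smooth muscle, fibroblast, endothelial, leukocyte, erythroid and goblet cell markers overlapped between the genotypes (exact permutation p of 0.0952 to 0.675). The part of cell composition in the values of Angptl4, Pdk4 and the other genes was not tested.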

How the data were processed

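RNA of colonic mucosa (crypts, by the methods) from 9 mice was sequenced by the authors on the BGISEQ-500 platform, aligned with BOWTIE2, quantified with RSEM and normalized with DESeq2. Genome build and tool versions were not given in the sources used here. The deposited signal values are counts scaled by size factors, 1 per mouse. Division by the value of 1 read gave whole reads for 100% of positive values (tolerance 0.01). Of 54146 genes, 24200 were at 0 in all mice.

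The main test was limma 3.58.1 (R 4.3.3, trended variance) on log2(normalized count + 1) over the 14410 genes reaching 10 in 4 or more mice, genotype as the only term, Benjamini-Hochberg adjustment. The plan named edgeR in place of limma if the values were whole counts. The deposited values were normalized, so limma was kept as the main test although whole reads could be recovered. With edgeR on those reads Plin3 also passed the adjusted p as lower. Alternatives on recovered reads were DESeq2 1.42.0 and edgeR 4.0.16, beside TMM scaling, other filters, a pseudocount of 0.1, sex or mitochondrial share as a covariate, females only, a replicate block and each mouse left out. Exact permutation over mice was used for single values. Coordinates and exon lengths come from GENCODE M21 (8 of 10 identifiers with the same version). Replicates are separate mice.

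The 10 genes and all lists were chosen with earlier results of these data known. Besides the 10, the text names up to 3 genes per list and direction in order of adjusted p, the 5 genes most alike to Angptl4, Pdk4 and Plin2, and markers of lists that moved, and 2 genes that meet this rule are not reported here. Abhd5, Pdk2 and Pdk3 were added for their role after values were seen.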

Additional observations from a re-analysis of the deposited data

Results flagged for a closer look

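In 44 groups of 4 or 5 mice (the 10 genes, 2 library measures and 10 marker sums in each genotype), the highest or lowest mouse stood apart from the rest by Dixon's test in 4, where chance would give about 2.2 (1 in 20). Pnpla2 in ApcMin/+ replicate 4 was 6738 normalized counts against 3258 to 4257 in the other ApcMin/+ mice. The same mouse had a summed level of surface colonocyte markers of 269898, against 127611 to 146104 in the others of its genotype. Without it the log2 genotype difference of Pnpla2 was 0.37 (SE 0.12) in place of 0.21, and those of Angptl4 and Pdk4 kept their sign. The smooth muscle markers of ApcMin/+; p16cis/cis replicate 2 summed to 113 (others 37.6 to 45.5), and the endothelial markers of ApcMin/+; p16cis/cis replicate 4 summed to 279 (others 129 to 139).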

How the results depend on the processing

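Across all genes 501 were called between the genotypes, 237 of them lower with p16cis/cis and 264 higher. The number was 326 with a mean of at least 50, 331 with sex as a covariate, 286 in females only and 0 with the mitochondrial share as a covariate (798 at an unadjusted p under 0.05). Leaving out 1 mouse gave 281 to 755, the widest moves being 309 without ApcMin/+ replicate 3, 755 without ApcMin/+ replicate 4 and 281 without ApcMin/+; p16cis/cis replicate 4. The 52 pathway genes past the adjusted p became 15 in females only and 0 with the mitochondrial share, and 34 to 58 with 1 mouse left out, the lowest without ApcMin/+; p16cis/cis replicate 2. The 7 genes called between the sexes became 18 with DESeq2. Why these numbers moved was not tested. DESeq2 gave 723 calls between the genotypes in place of 501.

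With 1 mouse left out, Angptl4 ran from -3.89 to -2.91, Pdk4 from -2.93 to -2.18 and Plin4 from -2.95 to -1.74 on the log2 scale, and none of the 8 genes tested changed sign. With the mitochondrial covariate Plin2 was at 0.12 (SE 0.35) and Hilpda at 0.39 (SE 0.38). Plin3 was at -0.10 (SE 0.25), Plin4 at -0.85 (SE 1.69) and Lipe at 0.64 (SE 0.43). The mitochondrial share did not overlap between the genotypes, and these estimates are too imprecise to show a change of sign. In females only Lipe was at 0.62 (SE 0.21). Same-numbered mice are different animals, and their deviations correlated with a mean of 0.02, so the numbers do not pair them. The replicate block gave 473 calls between the genotypes and 56 pathway genes. Plin4, Plin5 and G0s2, with at most 21, 13 and 8 reads in any library, are limited by depth.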
